A study of Mus musculus with 16 samples.

Results

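Acetylated RNA sites were described in the transcripts of 7 genes that sense or relieve stress of the endoplasmic reticulum (ER), in livers of male db/db and lean mice. The genes were Eif2ak3, Ern1, Atf6, Xbp1, Hspa5, Calr and Sdf2l1. They were chosen by role and with the calls of these same livers already known, and the measured values behind the choice were the lists with a peak at a region of Eif2ak3 and on Calr and Sdf2l1. For that reason the db/db and lean values below are a description, and no test is read on them. All peaks annotated to the 7 gene names were taken, which gave 83 of 68356 peaks and 32 of 25437 merged regions. Peaks were found on 6 of the 7 genes, out of 8602 genes with a peak in any list.

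N4-acetylcytidine (ac4C) is a modified cytidine in RNA, laid down by the acetyltransferase NAT10. RNA fragments of the liver were precipitated with an antibody to ac4C and sequenced beside their input, with 4 immunoprecipitates and 4 inputs per group, 16 samples in all. The lean group carried the strain label C57BL/6 and the other group the label db/db, the name of mice without a working leptin receptor, which become obese and diabetic. All mice were male and had free access to food and water, the sources used here do not give their age, and the whole liver, not sorted cells, was the source of RNA. The authors' peak lists are named db1, db2, db4 and db5 for db/db and C5 to C8 for the lean controls, and a list stands for the peaks of a single liver here. The labels do not say that each sample was a separate animal, so the spread between lists may be technical in part. A list reports where a peak was called, and a missing peak can come from low transcript level or low depth as well as from missing acetylation. The authors' false discovery rate was 100% for 67813 of 68356 peaks (99.2%), so a called peak is not an established acetylated site. Whole liver also cannot tell fewer cells of a type from less RNA per cell.

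Proteins that misfold in the ER are detected by a small set of sensors in its membrane. PERK, the product of Eif2ak3, slows translation by phosphorylating eIF2alpha. IRE1alpha, the product of Ern1, is a kinase and ribonuclease that splices the Xbp1 messenger, so that it encodes an active transcription factor. ATF6 is cut in the Golgi and its freed part enters the nucleus. XBP1 and ATF6 then raise genes of folding and degradation, among them Hspa5, which encodes the chaperone BiP, Calr, which encodes the lectin chaperone calreticulin, and Sdf2l1, whose product works with the BiP machinery. The liver relies on this response because it secretes most plasma proteins.

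The start of the transcript lay inside a called region in 3 of the 6 member genes with an entry in the promoter table (RefSeq, build GRCm38.p6). Atf6 had no entry there. The 30 bases that follow the annotated start are shown for these 3 genes, 5′ to 3′ on the strand of the gene, with cytidines in capitals because a cytidine is the base that is acetylated.
Ern1, chr11:106487767-106487796, minus strand: tCCgtgtCCaCCgatCCtCCgCCggtgCCg
Xbp1, chr11:5520641-5520670, plus strand: CtagggtaaaaCCgtgagaCtCggtCtgga
Sdf2l1, chr16:17132354-17132383, minus strand: agagCtggattggCCgCtgttgaggaCgga
Ern1 has 14 cytidines in these bases, Xbp1 has 6 and Sdf2l1 has 5. Over 50 bases after the start, Ern1 has 23, Xbp1 has 10 and Sdf2l1 has 9, where the median of 32851 windows in the table was 13. Which cytidine, if any, is acetylated cannot be read from a peak.

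Hspa5 and Calr are classical targets of ATF6 and XBP1, and their promoter windows (250 bases before to 50 after the start) held the ER stress response element. The element was searched on both strands as CCAAT, 9 bases of any kind and CCACG, and its fixed letters are in capitals below.
Hspa5, chr2:34772005-34772064, plus strand: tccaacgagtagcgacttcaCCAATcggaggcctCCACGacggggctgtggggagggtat
Calr, chr8:84847054-84847113, minus strand: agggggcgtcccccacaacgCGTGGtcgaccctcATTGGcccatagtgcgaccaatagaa
The match of Calr lies on the opposite strand and is therefore read as its complement. Of the 32851 windows, 39 (0.119%) held a match, and the windows of Eif2ak3, Ern1, Xbp1 and Sdf2l1 held none. The 2 genes with a match had different peak calls: Calr was called in 4 lists and Hspa5 in none.

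The 7 genes together had 15, 9, 13 and 8 peaks in db1, db2, db4 and db5, and 10, 7, 12 and 9 in C5 to C8. The group means were 11.2 ± 3.3 peaks (SD, n = 4) in db/db and 9.5 ± 2.08 (n = 4) in lean lists, and the ranges of 8 to 15 and 7 to 12 overlapped. Per 1000 peaks of the list the means were 1.24 ± 0.343 and 1.18 ± 0.25 (n = 4 each), so the groups were closer once the length of each list was set aside. The difference in peaks per list turned from 1.75 to -0.5 when peaks with a score below 50 were left out. It was 0.5 without db1, the list with the most member peaks, 0.917 without C6 and 1.17 without db4, and 2.83 without db5. A member gene with a peak was found 4.25 ± 1.26 times per db/db list and 4.75 ± 0.957 times per lean list (n = 4 each). That difference of -0.5 was -1.08 without db1 and -0.0833 without db4 or C8.

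**Figure D1:**
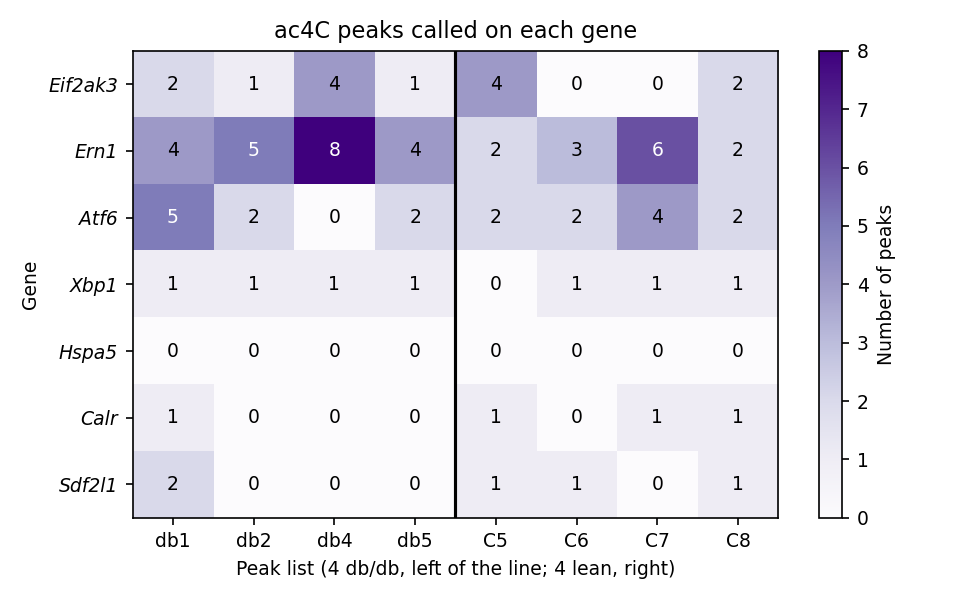
Number of ac4C peaks called on each of the 7 genes (rows) in each peak list (columns), with the 4 db/db lists left of the line and the 4 lean lists right of it. Ern1 had between 2 and 8 peaks in every list, Hspa5 had 0 in every list, and Calr and Sdf2l1 had peaks in db1 alone among the db/db lists.

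The list db1 stood apart from the other db/db lists. It shared fewer base pairs with the other lists of its group (mean Jaccard index 0.319) than db2, db4 and db5 did (0.35 to 0.362), and the lean lists stood at 0.374 to 0.38. It was also the only db/db list with peaks on all 6 called member genes, though the lean list C8 had peaks on all 6 as well. Peak calls are not expression levels, so the tissue label could be checked only weakly: 3 of 10 fixed hepatocyte markers had a peak in any list (0 to 3 per db/db list and 0 to 1 per lean list), and Alb, Apoa1, Apob and Ttr had none. Among fixed markers of other liver cells, stellate cell and fibroblast genes had calls on 4 to 6 of 9 per db/db list and 1 to 3 per lean list. Of those 9, Des, Acta2, Rgs5 and Lrat had no lean call, Pdgfrb had no db/db call, Reln and Col1a1 were called in as many db/db as lean lists, and Colec10 and Hgf in more db/db lists. Per list, markers with a peak numbered 1 to 3 (db/db) and 1 to 2 (lean) of 9 for Kupffer cells, 1 to 4 and 2 to 3 of 7 for sinusoidal endothelium, 1 to 4 and 1 to 2 of 6 for cholangiocytes, and 0 to 2 and 0 to 1 of 6 for lymphocytes. By a difference of at least 2 lists, 2 Kupffer and 2 cholangiocyte markers were called in more db/db lists. In each of these sets 1 marker was called in more lean lists, Timd4 and Cdh1 (0 db/db and 4 lean each). These marker counts stand without the share of all genes called in each list, so no difference in cell types is read from them. The part of these cells in the results on the 7 genes was not tested.

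The sensors carried most of the peaks, 67 of 83, and these were mostly low calls. Eif2ak3, Ern1 and Atf6 had 28 of the 32 regions, with a median width of 149 bp, a median fold of 3.73 and a median score of 24.2. The score is -10 times the decimal logarithm of the peak's p-value, so that 50 stands for a p-value of 1e-05, and the fold is the authors' linear enrichment over background. In contrast, the 16 peaks of Xbp1, Calr and Sdf2l1 had a median fold of 6.19 and a median score of 227, in 4 regions with a median width of 590 bp. Over all 68356 peaks the median fold was 4.07 and the median score 30.7, and 68.0% of peaks had a score under 50. Of the sensor peaks 55 of 67 (82.1%) were under that score, and of the peaks on Xbp1, Calr and Sdf2l1 none of 16.

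Eif2ak3 (chr6:70844484-70905241, mm10, plus strand), the gene of PERK, had 2, 1, 4 and 1 peaks in the db/db lists db1, db2, db4 and db5. In the lean lists C5 to C8 it had 4, 0, 0 and 2. The lists db4 and C5 held 8 of its 14 peaks, so the 2 groups overlapped in number of peaks. All 4 db/db lists and 2 of the 4 lean lists held a peak of the gene.

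The 14 peaks of Eif2ak3 fell into 7 regions, spread from 0.092 to 55.8 kb after the start. The 4th of them in the direction of transcription, chr6:70882265-70882427, began 37.8 kb from the start and was called in all 4 db/db lists and no lean list. This call is one of those that led to the choice of the gene. Its folds were 3.07 in db1, 4.67 in db2, 3.9 in db4 and 2.83 in db5. In each list the peak had the same bounds and a width of 163 bp. Within its own list it stood at the top 79.4% by fold in db1, 36.8% in db2, 53.6% in db4 and 87.9% in db5, so it lay below the middle of 3 of the 4 lists. Regions called in every db/db list and no lean list made up 217 of 25437 (0.853%), against 1 of the 32 member regions. Only db2 retained the peak when folds under 4 were dropped, and no list did when scores under 50 were.

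Neighbouring regions of Eif2ak3 did not have that pattern. Region chr6:70878835-70878968, next to it on the side of the start, was called in db4 at a fold of 3.3, in C5 at 3.73 and in C8 at 3.86. On its other side, region chr6:70890065-70890214 had a fold of 4.08 in db4 and 3.88 in C5. The region nearest the start, chr6:70844607-70845021, was called in C5 at a fold of 4.38 and in no other list. The highest score on the gene was 49.57, so no Eif2ak3 peak reached a score of 50.

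**Figure D2:**
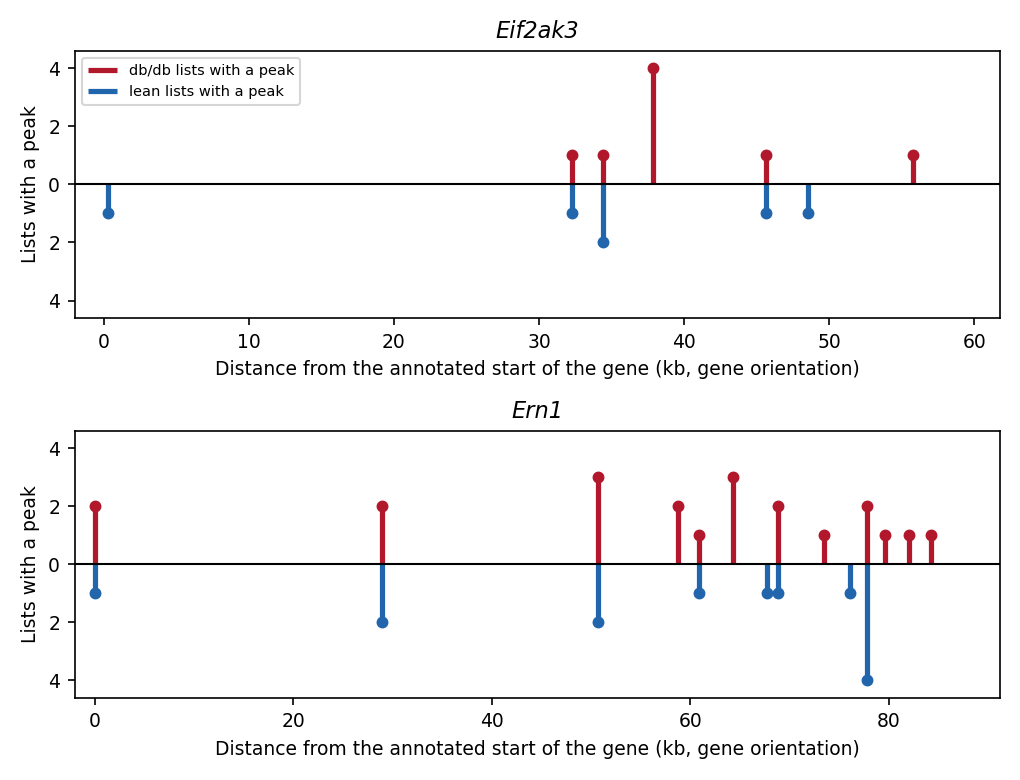
Regions of Eif2ak3 (top) and Ern1 (bottom) by distance from the annotated start of the gene in kb (x axis, gene orientation). Bars upward give the number of db/db lists with a peak and bars downward the number of lean lists, of 4 each. The Eif2ak3 region near 37.8 kb has 4 db/db lists and no lean list, and the Ern1 region near 77.6 kb has 4 lean and 2 db/db lists.

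Ern1 (chr11:106397620-106487796, minus strand), the gene of IRE1alpha, was the only member with a peak in all 8 lists, a property of 1701 of 8602 genes (19.8%). It had 4, 5, 8 and 4 peaks in db1, db2, db4 and db5 and 2, 3, 6 and 2 in C5 to C8. The means were 5.25 ± 1.89 and 3.25 ± 1.89 peaks (SD, n = 4 each), and the range of 4 to 8 overlapped that of 2 to 6 through C7. With 34 peaks over the lists it was in the top 2.54% of 8072 genes by number of peaks, without regard to gene length.

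Its peaks fell into 14 regions, none of which was called in every list. The most recurrent, chr11:106409895-106410162, lay 77.6 kb from the start and was called in 4 lean and 2 db/db lists. Folds there were 6.88 in db2 and 4.46 in db4, and 3.77, 4.76, 4.48 and 5.1 in C5 to C8. Scores ran from 40.73 to 113.08. The lean calls thus included all 4 lists, while db1 and db5 had none at this region.

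An opposite pattern was found in Ern1 at chr11:106423387-106423488, which began 64.3 kb from the start. It was called at folds of 3.57 in db1, 2.99 in db2 and 4.98 in db5, and in no lean list. With folds under 4 left out, 1 db/db list kept this call, and with scores under 50 left out none did. A region at chr11:106458556-106459028 was even between the groups, with folds of 4.97 in db4, 4.4 in db5, 4.25 in C5 and 5.09 in C7. The shortest region of all members, chr11:106437090-106437123 (34 bp), was called in 3 db/db and 2 lean lists at folds of 2.39 to 4.97.

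The start of Ern1, whose bases are shown above, lay in the region chr11:106487617-106487820. This region was called in db2 at a fold of 3.87, in db4 at 4.19 and in C7 at 9.38. It reached 24 bases beyond the RefSeq start of the gene, and the transcript named for it in the lists was an Ensembl one. In C7 the peak stood in the top 5.46% by fold, in db2 at 55.8% and in db4 at 45.8%.

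Atf6 (chr1:170704457-170868585) encodes the sensor that is itself released as a transcription factor. It had 5, 2, 0 and 2 peaks in db1, db2, db4 and db5 and 2, 2, 4 and 2 in C5 to C8. Every lean list had a peak, and db4, with the most Ern1 peaks of all lists, had none on Atf6. The means of 2.25 ± 2.06 and 2.5 ± 1.0 peaks (n = 4 each) lay within the spread of the lists.

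Of the 7 regions of Atf6, the most recurrent was chr1:170747106-170747190, with folds of 4.14 in db1, 4.89 in db2, 4.8 in db5, 8.06 in C6 and 8.19 in C7. Within their lists the C6 and C7 peaks stood in the top 9.41% and 8.07% by fold, and the db/db peaks at 32.6% to 46.6%. Folds of separate lists share no common depth, so these ranks show no change between groups. Region chr1:170788608-170788675 was called in db1, db2 and db5 and in C6, at folds of 2.18 to 3.53. Region chr1:170815423-170815514 leaned the other way, with db1 at 2.3 and C5, C7 and C8 at 3.02, 2.42 and 4.29.

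Xbp1 (chr11:5520641-5525993, plus strand), the messenger that IRE1alpha splices, had a single region, chr11:5520641-5521200, which began at the annotated start of the gene and was 560 bp wide. It was called in all 4 db/db lists, with folds of 9.87 in db1, 7.31 in db2, 5.67 in db4 and 5.22 in db5. In the lean lists the folds were 5.32 in C6, 6.44 in C7 and 5.94 in C8, and C5 had no call. All 7 peaks ended at the same base and kept to folds above 4 and scores above 50. The peak stood in the top 1.53% by score in db1 and the top 3.83% in C7, and at 32.1% in C6.

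Hspa5 (chr2:34772090-34776529, plus strand), the gene of BiP, had no peak in any list by gene name or gene identifier. No peak of another gene name lay within its bounds either. Without read counts the level of this transcript is unknown here, and the missing call does not show that it lacks ac4C.

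Calr (chr8:84842088-84846931, minus strand) had a single region, chr8:84841907-84842844, at the 3′ end of the gene and reaching 181 bp beyond its RefSeq bound. It was called in db1 at a fold of 11.54 and in no other db/db list. In the lean lists it was called in C5 at 6.98, in C7 at 7.39 and in C8 at 7.63. The scores were 1905.23 in db1, 175.94 in C5, 594.87 in C7 and 1239.42 in C8, and those of db1 and C8 were the highest of the 83 peaks. The widths were 821, 850, 897 and 938 bp, all ending at the same base. The db1 peak stood in the top 0.665% of its list by score. Its false discovery rate of 95.82% was the only one among the 83 peaks that was below 100%. So high a rate does not mark the peak as reliable, and by this measure none of the 83 peaks is established.

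Sdf2l1 (chr16:17130138-17132383, minus strand) had 2 regions, at its opposite ends. The region at the start, chr16:17132124-17132383, was called in db1 at a fold of 13.44 and in C5, C6 and C8 at 4.45, 4.42 and 4.58. It had a width of 260 bp in all 4 lists and ended exactly at the annotated start of the gene. The region near the 3′ end, chr16:17130170-17130788, was called in db1 alone, at a fold of 5.09. Sdf2l1 and Calr shared their calls in db1, C5 and C8 and differed in C6 and C7.

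Calr and Sdf2l1 were each called in 1 db/db and 3 lean lists. Genes found in 3 or more lean lists and no more than 1 db/db list made up 433 of 8602 (5.03%), and this lean was among the values that chose the 2 genes. Because db1 held the only db/db call of both genes, leaving it out gives 0 of the 3 other db/db lists by construction. The lean calls remain 3 of 4, and the omission adds no evidence. Both genes kept their calls with folds under 4 or scores under 50 left out. No member gene had the opposite pattern, which 616 genes (7.16%) had. Nor did any member gene have a peak in every list of a group and none of the other, a pattern of 81 genes (0.942%) for db/db and 58 (0.674%) for lean.

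**Figure D3:**
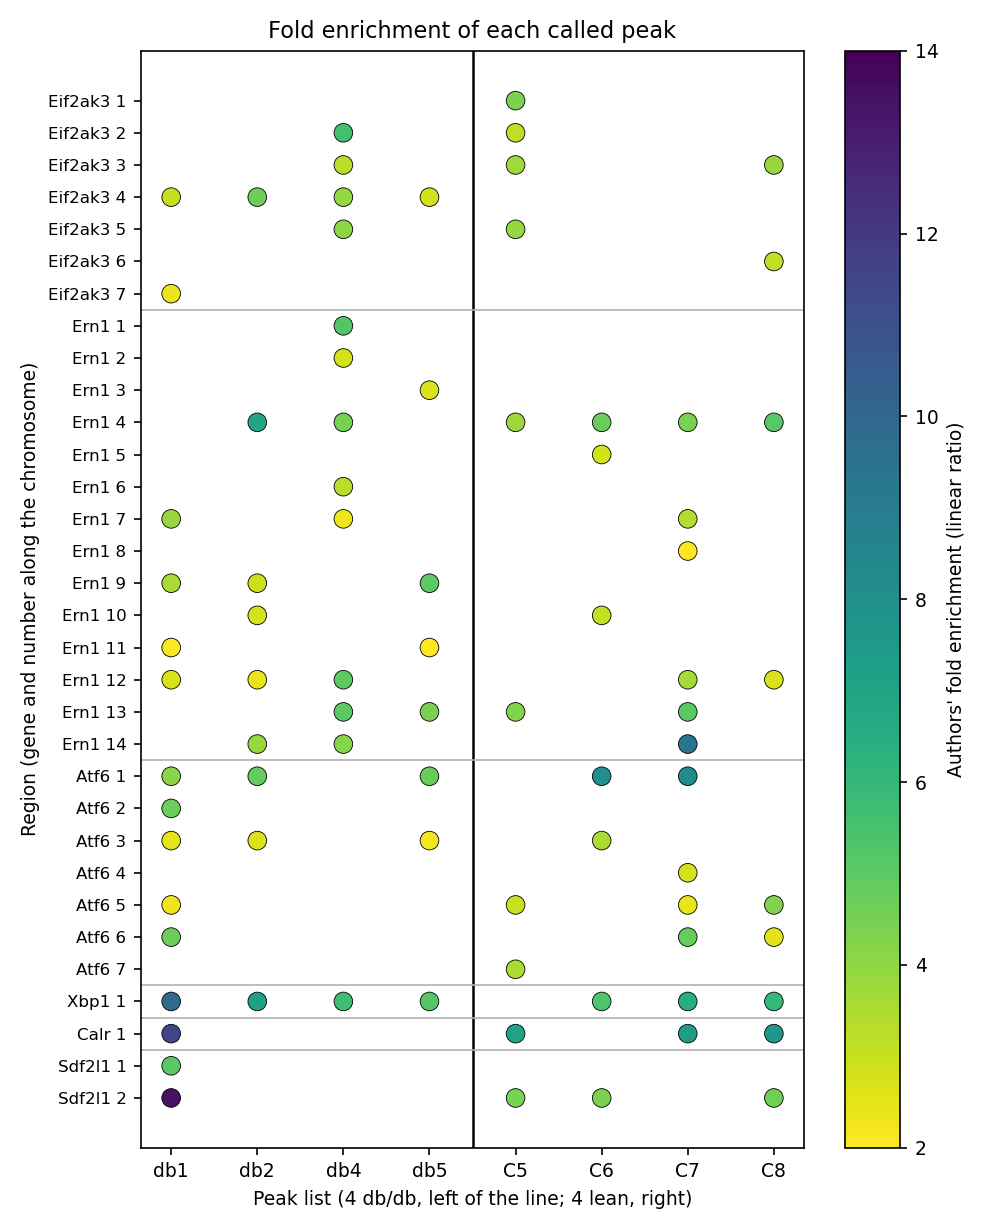
Each of the 32 regions of the 7 genes (rows, numbered along the chromosome) by peak list (columns, db/db left of the line and lean right of it), with a point where a peak was called and its colour giving the authors' fold enrichment on a linear scale. Sensor regions are scattered over lists at folds of 2.0 to 9.38, and the regions of Xbp1, Calr and Sdf2l1 have folds of 4.42 to 13.44.

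By region, 3 of the 32 were called in 3 or more db/db lists and no more than 1 lean list, 1 each in Eif2ak3, Ern1 and Atf6. All regions with that pattern were 1543 of 25437 (6.07%). The opposite pattern was also found in 3 of 32, 1 each in Atf6, Calr and Sdf2l1, against 1223 (4.81%) of all regions. The Eif2ak3 region and the regions of Calr and Sdf2l1 were among the calls that chose the genes. Both counts are therefore partly fixed by the choice, and no excess over the share of all regions is read from them. With folds under 4 left out, 0 regions leaned to db/db and 2 to lean, and the numbers were the same with scores under 50 left out. The 2 that stayed were those of Calr and Sdf2l1, whose calls chose the genes. The shares of all regions under these filters were not set beside them, so no shift towards lean is read. No member region was called in every lean list and no db/db list, as 0.708% of all regions were. A call in 1 list only was found for 13 of 32 regions (40.6%), against 45.0% of all regions, and no member region was called in all 8 lists, against 6.21% of all regions.

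Peaks that recurred at a member region often had identical bounds, as they did over all genes. In 12 of the 19 member regions called in at least 2 lists (63.2%) every peak had the same start and end, against 9895 of 13981 such regions over all genes (70.8%). The peaks shared their start or their end in all 19, and in 13274 of the 13981. Fisher's exact test over all genes, with Benjamini-Hochberg adjustment, passed 0 of 8602 genes (139 at an unadjusted p under 0.05), and over regions it passed 0 of 25437 (397 unadjusted). A call in 4 lists against none gives an exact p of 0.0286, the smallest this design allows.

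Some genes had a similar spread of peaks over the 8 lists, measured by the summed difference in number of peaks per list. Closest to Eif2ak3 was Sfi1, with a summed difference of 3 and 2, 1, 3 and 2 peaks in the db/db lists and 4, 0, 1 and 2 in C5 to C8. Closest to Ern1 were Kdm4a and Mylk, each with a summed difference of 7. Kdm4a had 4, 4, 6 and 2 peaks in the db/db lists and 2, 3, 5 and 3 in the lean lists. For Atf6, Xbp1, Calr and Sdf2l1 between 4 and 18 genes tied, so none is named.

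The other genes of the stress response were taken from a list of 74 genes in 5 groups, chosen with earlier results of these data known. A peak in any list was found for 54 of them. Peaks were called on 41, 32, 31 and 31 of the genes in db1, db2, db4 and db5 and on 32, 39, 32 and 37 in C5 to C8. These counts are given without the share of all genes called in each list. The db/db mean was 33.8 genes, with an SD of 4.86 in db/db and 3.56 in lean lists (n = 4 each). The difference of db/db minus lean, -1.25, was smaller than either SD. It was -3.67 without db1, which had the most of these genes, and 0.0833 without C6, and between these values without each of the other lists.

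Of the 54 genes, 14 (25.9%) had a peak in all 8 lists, against 19.8% of all genes with a peak, a difference that was not tested. They were Eif2s1, which encodes eIF2alpha, the target of PERK, then Rtcb, the ligase that rejoins Xbp1 after splicing, and Mbtps1, the protease that cuts ATF6. Creb3l2, a relative of ATF6, and Nfyb and Nfyc, subunits of the factor that binds CCAAT, were called in all 8 too. So were the chaperone Canx, the disulphide isomerases Pdia4 and Txndc5, and Prkcsh, a subunit of a glucosidase that trims glycoproteins. The remaining 4 belong to ER-associated degradation, Sel1l, Edem3, Os9 and Nploc4. Pdia4 had folds of 7.19 to 41.0 over its 18 peaks.

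By a difference of at least 2 lists, 5 of the 54 genes (9.26%) were called in more db/db lists and 8 (14.8%) in more lean lists. Over all genes these shares were 14.4% and 10.1% (1237 and 871 of 8602), and the median difference was 0 lists in both the 54 genes and all genes. More db/db lists were found for Wfs1, a calcium-handling ER membrane protein (4 db/db and 0 lean), Man1b1, a mannosidase of degradation (4 and 0), Atf6b, a relative of ATF6 (4 and 1), Atf3, a stress-induced transcription factor (2 and 0), and Ero1l, an ER oxidase (2 and 0). Counting folds of 4 or more, Wfs1 stood at 2 and 0, Man1b1 at 1 and 0, and Atf6b, Atf3 and Ero1l at 0 and 0. With scores of 50 or more, Wfs1 stood at 1 and 0 and the others at 0 and 0.

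More lean lists were found for the folding genes P4hb, a disulphide isomerase (1 db/db and 4 lean), and Ppib, a prolyl isomerase (1 and 4). The others were Fkbp2 (1 and 3), Sil1, a nucleotide exchange factor of BiP (2 and 4), Selk (2 and 4), Bax (2 and 4), Erlec1 (0 and 2) and Ufd1l (0 and 2). Counting folds of 4 or more, P4hb stood at 1 and 2, Sil1 and Selk at 2 and 2, and Erlec1 at 0 and 0, while Ppib, Fkbp2, Bax and Ufd1l were as before. The other filter, a score of 50 or more, gave a different picture. By it P4hb stood at 0 and 4, Fkbp2 at 1 and 1, Sil1 at 1 and 0, and Selk at 1 and 2. Erlec1 and Ufd1l stood at 0 and 0, and Ppib and Bax were as before. The only db/db call of P4hb and Ppib was in db1, so without db1 none of the 3 other db/db lists held one, by construction. Both were called in all 4 lean lists, and the omission adds no evidence.

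The group of 24 chaperone and folding genes had 20 called in db1, 12 in db2, 11 in db4 and 9 in db5. In the lean lists C5 to C8 it had 15, 15, 14 and 16. The db/db mean was 13.0 ± 4.83 and the lean mean 15.0 ± 0.816 (n = 4 each). No db/db list fell within the lean range, since db1 stood above it and db2, db4 and db5 below it. Without db1, a choice made after seeing the values, the db/db mean was 10.7 ± 1.53 (n = 3) with a range of 9 to 12, below the lean range of 14 to 16. The share of all genes called in each list was not set beside these counts. No result about chaperone genes in particular is therefore read from them. The difference over all lists was 0 when folds under 4, or scores under 50, were left out. Single genes still differed both ways under these filters, examples picked after seeing the values. Dnajc10 was called in 4 db/db and 0 lean lists under either filter, and Uggt1 in 4 and 0 with the score filter. Ppib was called in 1 and 4 under either, and P4hb in 0 and 4 with the score filter. Without a filter Dnajc10 and Uggt1 were each called in 4 db/db and 3 lean lists, and Ppib and P4hb in 1 and 4. The share of all genes with such splits was not set beside these examples, so no result is read from them. The other 4 groups overlapped between db/db and lean: per list, PERK arm genes numbered 2 to 4 and 3 to 4 of 12, IRE1 arm genes 4 to 5 and 3 to 4 of 10, ATF6 arm genes 5 and 4 to 5 of 9, and degradation genes 6 to 9 and 6 to 11 of 19.

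**Figure D4:**
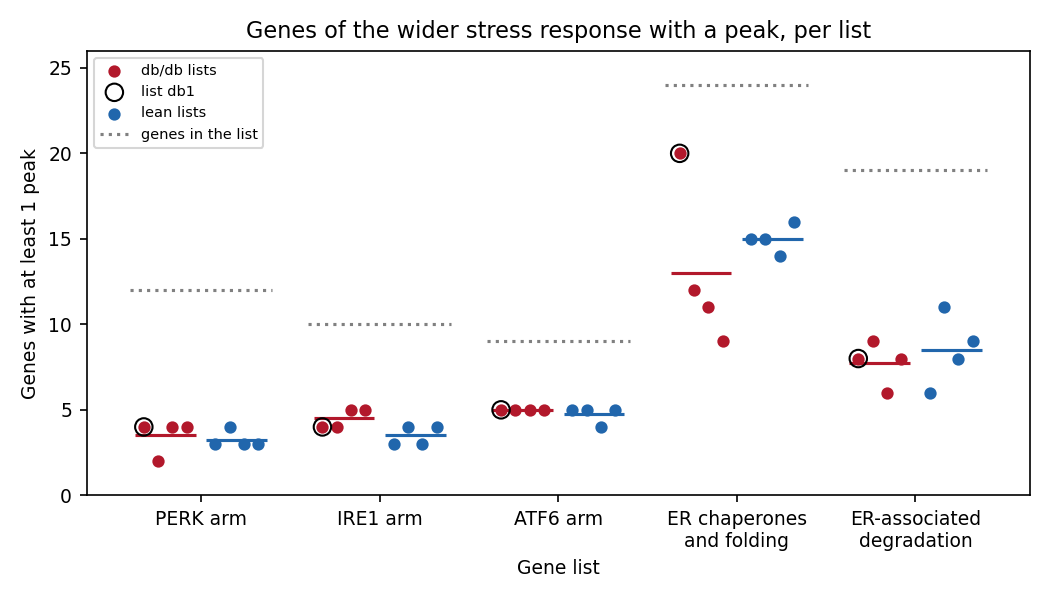
Number of genes with at least 1 peak (y axis) in each of 5 groups of stress response genes (x axis), with a point per list, db/db left and lean right in each group, bars for the mean of 4 lists, a dotted line for the size of the group and a ring around db1. In the chaperone and folding group db1 stands at 20 of 24 genes, the other db/db lists at 9 to 12 and the lean lists at 14 to 16.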

How the data were processed

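Peak lists of 8 ac4C immunoprecipitates were analysed, 4 db/db and 4 lean. The submitters' processing notes list cutadapt 1.9.3, HISAT2 2.0.4 and the build mm10. MACS is the caller that the peak names carry, per the file headers and rows, and neither its version nor its control is stated in the sources used here. The score was deposited by the authors and equals -10 times log10 of the p-value. The fold enrichment was deposited by the authors as a linear ratio, and the false discovery rate in percent. Depth is unknown, since read counts were not used, and intervals that need it are left out.

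Each list was given a group but no numbered sample, since the names db5, C5, C6, C7 and C8 are not sample titles, and C was read as the lean control. Peaks of all genes were merged where they shared at least 1 bp. Starts were converted to 1-based coordinates. Regions were compared by presence only, with Python 3.11.15, pandas 2.3.3 and scipy 1.17.1, after the merging was tested on simulated data. Exon and untranslated region annotation was not used here. The members and the gene lists were chosen with earlier results of these data known. Named genes were all members, genes of the wider list that differed by at least 2 lists or were called in all 8, and genes of like pattern where at most 3 tied. All 74 symbols of the wider list matched RefSeq, 4 of them as older symbols. Alternatives were a fold of at least 4, a score of at least 50, an equal number of peaks per list (7583), leaving out each list, and merging at 50 bp overlap or within 100 bp.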

Additional observations from a re-analysis of the deposited data

Results flagged for a closer look

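In 10 of 31 groups of 4 values checked, 1 list stood far from the other 3. Any group with 3 equal values and a different one meets the rule, which is common among such small counts. The number found is therefore not set against chance. In db1, 41 genes of the wider list had a peak, against 31, 31 and 32 in the other db/db lists. Sdf2l1 had 2 peaks in db1 and Calr 1, against 0 in the other db/db lists. In the lean lists, Atf6 had 4 peaks in C7 against 2 elsewhere, Xbp1 had 0 in C5, Calr 0 in C6 and Sdf2l1 0 in C7, against 1 elsewhere. Genes of the PERK arm with a peak numbered 2 in db2 against 4, and 4 in C6 against 3, and those of the ATF6 arm 4 in C7 against 5.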

How the results depend on the processing

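The difference of 1.75 member peaks per list turned to -0.5 at a score of at least 50, and lay between 0.5 (without db1) and 2.83 (without db5) when each list was left out in turn. The difference of -0.5 member genes per list kept its sign under all filters and omissions run (-1.08 without db1 to -0.0833 without db4 or C8 over the omissions). The 3 regions leaning to db/db became 0 at a fold of at least 4, 0 at a score of at least 50 and 1 with equal numbers of peaks. With 3 lists left in a group, they numbered 1 without db1, db2 or db5 and 5 without C7. The 3 regions leaning to lean numbered 2 at that fold, at that score and with equal numbers of peaks, 0 without C5 or C8, 1 without C7, and 0 to 4 over all omissions. The rule of at least 3 lists was kept in a group with 3 lists left, so it then asked for all 3. Each lean region was called in 3 lean lists, C5 and C8 among them, so the 0 without C5 or C8 follows from the rule. At that fold and that score the 2 were the regions of Calr and Sdf2l1, whose calls chose the genes. The wider list's difference of -1.25 genes lay between -3.67 (without db1) and 0.0833 (without C6), and was 0 with folds under 4 or scores under 50 left out. Neither way of merging changed the region counts by over 1.5 times. No adjusted Fisher's exact test over genes passed under any setting, a design with no power to do so. No paired analysis was possible because the list names of the 2 groups share a single number, 5. Depth limits every absence, since no read counts were used.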
